A study of Mus musculus with 6 samples.

Results

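The genes described here encode the mitochondrial ribosomal proteins of the mouse, the protein part of the ribosome that works inside mitochondria. They were taken by name: every row of the deposited gene table whose symbol starts with Mrpl or Mrps followed by a digit, without pseudogenes. That gave 77 genes of the 34745 in the table, and all 77 had enough counts to be tested. Expression was measured by RNA sequencing in RAW 264.7 cells, an established mouse macrophage line. The 6 libraries were 3 from cells treated with bisphenol AP (BPAP), a bisphenol compound used in plastics, and 3 from cells given the solvent DMSO. Both groups are the same unmodified line, and the sources used here give neither the dose of BPAP nor the length of exposure. The labels do not say whether the 3 libraries of a group came from separate cultures, so each p-value reflects only how these libraries spread, and that spread may be technical.

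Mitochondria carry their own ribosome, descended from a bacterial one, which translates only the few proteins encoded by mitochondrial DNA, all of them subunits of the respiratory chain and ATP synthase. Its RNAs come from mitochondrial DNA, while all of its proteins are encoded in the nucleus, made in the cytosol and imported. Proteins named with an L sit in the large subunit, which forms peptide bonds, and proteins named with an S mostly sit in the small subunit, which decodes the messenger RNA. Many have a bacterial counterpart, and others were added in the mitochondrial lineage. Macrophages depend on mitochondrial respiration to different degrees in different activation states.

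Library totals ran between 11084705 and 13806559 counts. All 8 macrophage markers examined were detected in every library, with a summed level of 5038 to 5442 CPM (counts scaled by library size) with BPAP and 4532 to 5149 CPM with DMSO. Single markers moved in both directions: Cd14 (log2 fold change 1.3, adjusted p = 0.0121), Lyz2 (0.36, adjusted p = 0.0103), Adgre1 (0.36, adjusted p = 0.0238) and Spi1 (0.33, adjusted p = 0.0392) rose, and Ptprc (-0.64, adjusted p = 0.00181) and Csf1r (-0.41, adjusted p = 0.013) fell. Cd68 (0.11) and Itgam (-0.79) did not pass, and the part of these differences in the members' values was not tested. The T cell, B cell and epithelial markers had 0 counts, and 2 of 4 fibroblast markers had a count, at most 12. The library DMSO 1 stood apart in that 10.8% of its counts fell on mitochondrially encoded genes, against 6.53% to 7.55% in the other libraries.

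Transcripts of the mitochondrial ribosomal proteins were more abundant in BPAP-treated cells. Of the 77 genes, 41 rose, 0 fell and 36 did not pass the test (an adjusted p of 0.05 by edgeR's quasi-likelihood test, Benjamini-Hochberg over 11711 genes). This is 53.2% of the members, where 16.2% of all genes tested rose and 15.5% fell. At an unadjusted p of 0.05 the counts were 57 higher and 0 lower. The share of all genes at that unadjusted threshold is not given, here or for the lists below. DESeq2 and limma-voom, at an adjusted p of 0.05, also called 0 lower, where 16.0% and 15.6% of all genes fell. The median log2 fold change, BPAP minus DMSO, was 0.37 for the members and 0.02 for all genes tested, and 73 of 77 members had a positive value where 51.6% of all genes did. The changes were modest: 16 of the 41 rose by at least 1.5-fold, a size that 6.36% of all genes reached, and 1, Mrps24, by over 2-fold. In these bulk libraries a change in the make-up of the cells and a change in RNA per cell cannot be told apart.

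Together the 77 genes took 0.361%, 0.407% and 0.376% of all counts in BPAP libraries 1, 2 and 3, against 0.277%, 0.301% and 0.307% in DMSO libraries 1, 2 and 3. All 3 BPAP values lay above all 3 DMSO values. The means were 0.381% ± 0.023 with BPAP and 0.295% ± 0.016 with DMSO (SD, n = 3 each), a ratio of 1.29. With the mitochondrially encoded genes left out of the total, the ratio was 1.27.

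**Figure D1:**
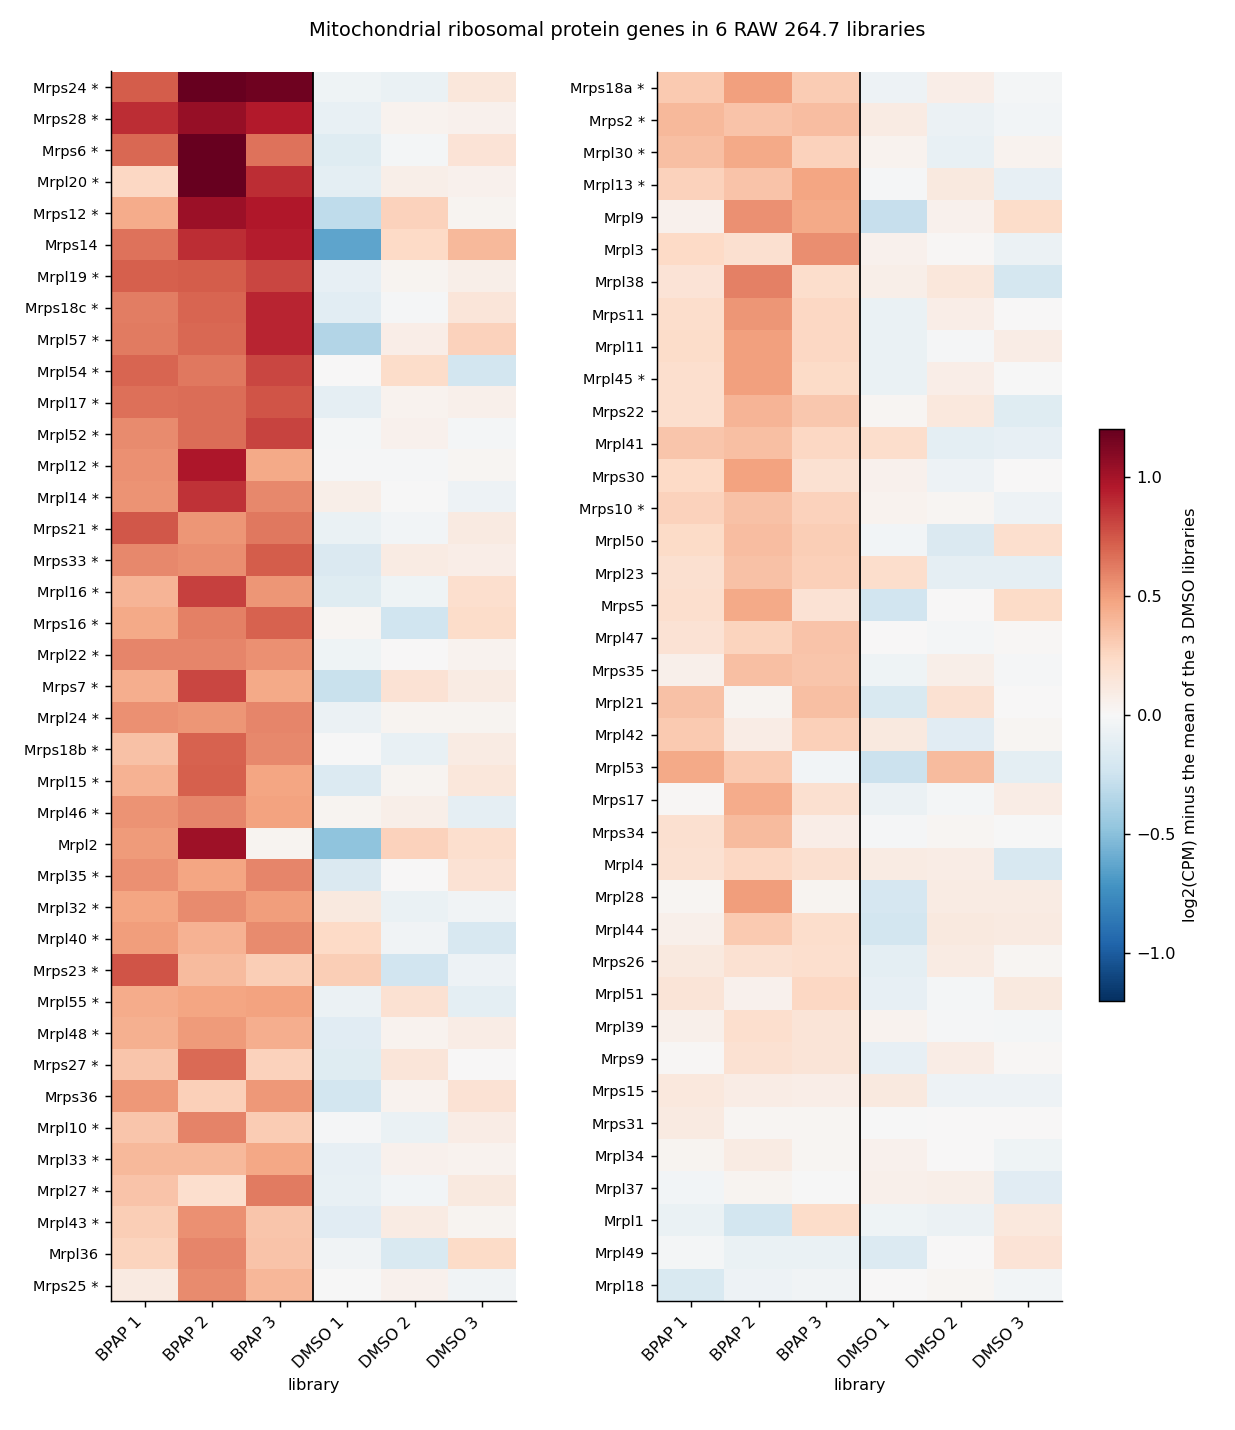
Log2 CPM of each of the 77 genes (rows, ordered by fitted fold change, continuing in the right panel) in each library (columns), minus the mean of the 3 DMSO libraries. Colours saturate at 1.2, and an asterisk marks the 41 genes that passed the test; nearly all rows are red in the 3 BPAP columns, and BPAP 2 holds the highest value for 44 of the 77 genes.

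Gene by gene, 58 members had all 3 BPAP libraries above all 3 DMSO libraries, where 25.2% of all genes tested did, and 1 member had them all below, where 23.8% of all genes did. The libraries did not contribute evenly. BPAP 2 was the highest library for 44 members, and DMSO 1 the lowest for 42. Without DMSO 1, 2 or 3 the fit called 30, 31 and 32 members higher, where 10.5%, 10.8% and 11.3% of all genes rose. Without BPAP 1, 2 or 3 it called 37, 38 and 36, where 13.2%, 14.0% and 13.6% of all genes rose, and in each of the 6 fits 0 members fell. In all 6 fits 23 of the 41 genes were called, rising 1.33-fold to 2.07-fold. The share of all genes called in all 6 fits is not given here.

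Transcript length moved with the result. Across all genes tested the log2 fold change fell with the length of the principal transcript (Spearman's rho across 11665 genes -0.40, with no independence between genes), and the members' principal transcripts are short, with a median of 1288 bases against 2865 bases for all genes tested. Among the members themselves rho was -0.20. Where each library's trend with principal transcript length and GC content was removed before the test, 19 members rose and 2 fell and the median log2 fold change was 0.20, where 11.6% of all genes rose and 11.3% fell. With merged exon length in place of the principal transcript the counts were 28 and 3, where 11.9% and 11.2% of all genes were called. With the gene length implied by the deposited FPKM values they were 30 and 1, where 12.2% and 12.0% of all genes were called. Of the 41 genes, 13 were called higher under all 3 corrections: Mrpl12, Mrpl15, Mrpl17, Mrpl19, Mrpl24, Mrpl35, Mrpl48, Mrpl57, Mrps18c, Mrps24, Mrps25, Mrps28 and Mrps33. All of them but Mrps25 were also called in each fit with a library left out. These 13 are long for members, with a median principal length of 2877 bases, against 1048.5 bases for the other 28. Among the members rho with principal length was 0.47 once that trend was removed, and with exon length 0.43 once the exon trend was removed. The corrected values were thus higher for longer members. The share of all genes called under all 3 corrections is not given here. The part of transcript length in these calls was not tested.

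**Figure D2:**
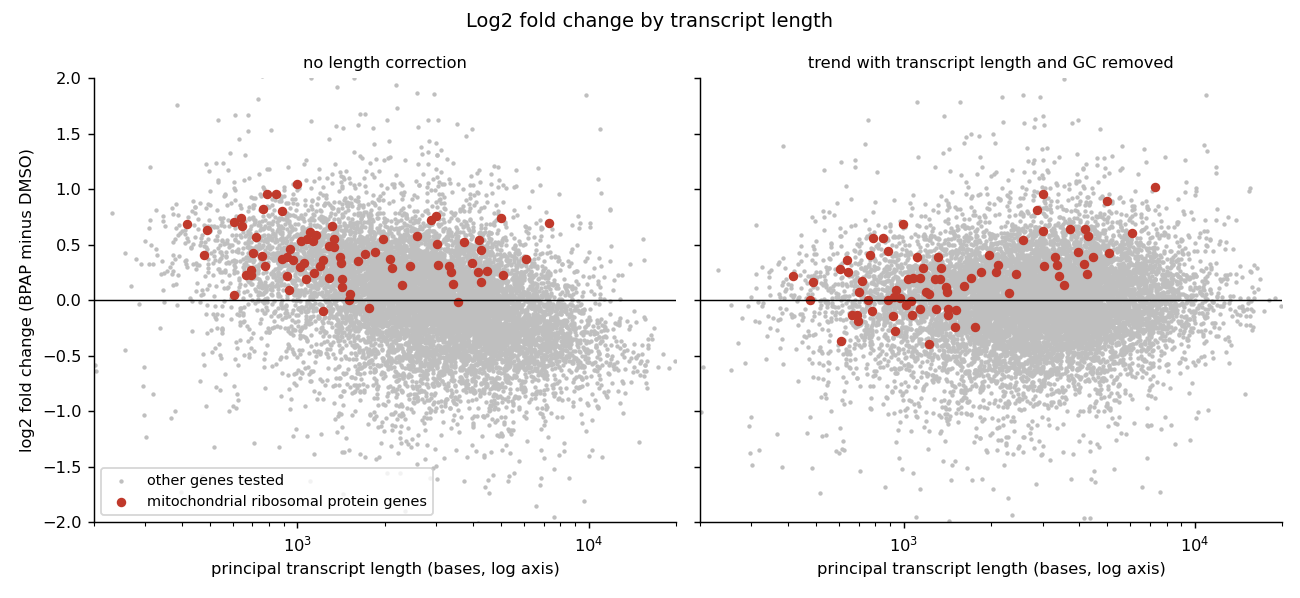
Log2 fold change (BPAP minus DMSO) against principal transcript length on a log axis, for the members (red) and all other genes tested (grey), without a correction (left) and with the trend of each library with length and GC content removed (right). Genes beyond the axis limits are not shown; the members lie mostly above 0 on the left, with a median of 0.37, and closer to 0 on the right, with a median of 0.20.

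In the large subunit 26 of 50 genes rose, with a median log2 fold change of 0.37. Genes for proteins with a bacterial counterpart made up 30 of these 50, and 17 of the 30 rose. The 6 members of either subunit with the smallest p-values are given in full here and below, with genes chosen for their roles. Mrpl19 (chr6:81957851-81965958, minus strand, GRCm38) encodes bL19m, whose bacterial counterpart lies at the contact between the subunits. It had 132, 133 and 140 CPM in BPAP libraries 1, 2 and 3, against 74.9, 82.3 and 84.2 CPM in DMSO libraries 1, 2 and 3. The groups were far apart, and the log2 fold change was 0.75 (SE 0.087, adjusted p = 0.000579), the smallest p-value among the 77.

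Mrpl17 (chr7:105806658-105811099, minus strand) encodes bL17m, whose bacterial counterpart lies near the exit of the tunnel through which new peptides leave. It had 71.0, 71.3 and 75.7 CPM with BPAP, against 41.6, 46.3 and 46.9 CPM with DMSO. All BPAP libraries were again well above all DMSO libraries, and the log2 fold change was 0.69 (SE 0.093, adjusted p = 0.001). Mrpl24 (chr3:87919506-87923672, plus strand) encodes uL24m, whose bacterial counterpart starts the assembly of the large subunit. This abundant member had 208, 205 and 213 CPM with BPAP, against 135, 145 and 145 CPM with DMSO. The libraries of each group lay close together, and the log2 fold change was 0.56 (SE 0.079, adjusted p = 0.0013).

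Mrpl12 (chr11:120484613-120489065, plus strand) encodes bL12m, the stalk protein that draws translation factors to the ribosome, and in human cells it also binds the mitochondrial RNA polymerase. It had 84.5, 113 and 79.3 CPM with BPAP, against 57.6, 57.3 and 59.0 CPM with DMSO. BPAP 2 was far above the other BPAP libraries, though all 3 exceeded DMSO, and the log2 fold change was 0.67 (SE 0.13, adjusted p = 0.00451). Mrpl32 encodes bL32m, which in mouse and yeast is cut by a mitochondrial protease before it joins the ribosome, and is among the 4 members with the highest deposited FPKM. It had 60.0, 64.0 and 61.3 CPM with BPAP, against 47.1, 41.0 and 42.0 CPM with DMSO, with no overlap. Its log2 fold change was 0.51 (SE 0.096, adjusted p = 0.00393), and 0.17 (adjusted p = 0.201) with the FPKM length trend removed.

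Other large-subunit genes with a bacterial counterpart that were called in every fit with a library left out were Mrpl14 (uL14m, 1.59-fold, at the subunit contact), Mrpl22 (uL22m, 1.48-fold, in the wall of the peptide tunnel), Mrpl16 (uL16m, 1.5-fold), Mrpl15 (uL15m, 1.45-fold), Mrpl35 (bL35m, 1.44-fold) and Mrpl33 (bL33m, 1.33-fold). Of these, Mrpl15 and Mrpl35 were also called under all 3 length corrections. Mrpl22 had 0.20, 0.18 and 0.31 on the log2 scale with the exon, principal transcript and FPKM length trends removed and lost its call in each. With the principal transcript trend removed Mrpl14 had 0.25, Mrpl16 0.29 and Mrpl33 0.0026, none of which passed, and with the FPKM trend removed Mrpl16 had 0.30 (adjusted p = 0.112). Mrpl20, chosen after its values were seen, encodes bL20m, whose bacterial counterpart acts early in assembly. It had 27.9, 53.8 and 43.4 CPM with BPAP, against 21.7, 24.7 and 24.4 CPM with DMSO. The BPAP libraries were widely spread, the lowest just above DMSO, and the log2 fold change was 0.82 (SE 0.21, adjusted p = 0.0205). The call was lost without BPAP 3 (adjusted p = 0.0599), DMSO 1 (0.0874), DMSO 2 (0.0536) or DMSO 3 (0.0589), with log2 fold changes of 0.79, 0.74, 0.85 and 0.84. With the exon and principal transcript trends removed its values were 0.51 and 0.40, and neither passed.

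**Figure D3:**
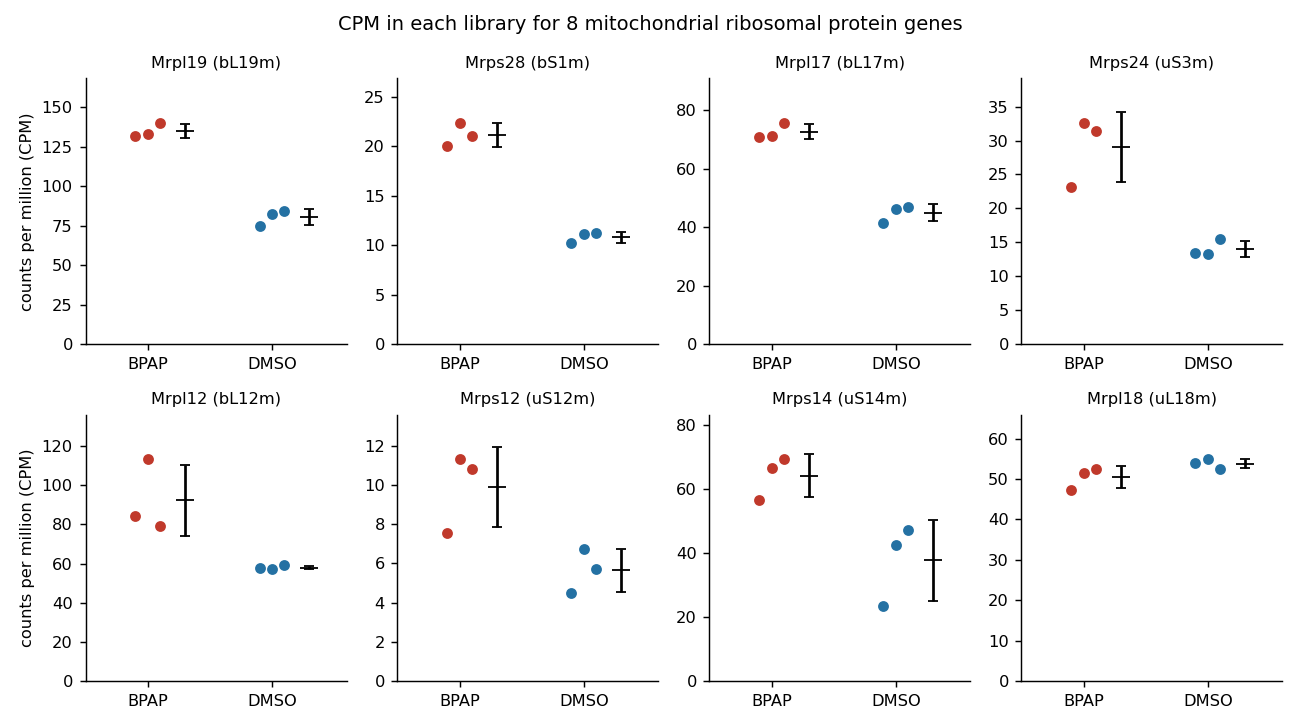
CPM in each library (points) with the mean and SD of the 3 libraries (bar) for 8 members, BPAP in red and DMSO in blue. The groups are separate in all 8 panels; Mrpl18 is the one panel with BPAP below DMSO, and in Mrps14 the library DMSO 1 lies well under the other DMSO libraries.

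Of the 20 large-subunit genes for proteins that arose in the mitochondrial lineage, 9 rose, with a median log2 fold change of 0.31. Mrpl52 (chr14:54426909-54429756, plus strand), which encodes mL52, had 47.1, 50.5 and 55.7 CPM with BPAP, against 31.2, 32.8 and 31.2 CPM with DMSO. No library of one group reached the other, and the log2 fold change was 0.69 (SE 0.10, adjusted p = 0.0015). Its principal transcript, at 418 bases, is short, and with the trend of principal transcript length removed the value was 0.22 (adjusted p = 0.13). Mrpl54 (mL54, 1.63-fold), Mrpl57 (mL63, 1.65-fold), Mrpl46 (mL46, 1.45-fold) and Mrpl48 (mL48, 1.37-fold) were also called in every fit with a library left out. Mrpl46 lost its call under all 3 length corrections (0.18, 0.20 and 0.31), and Mrpl54 with the exon (0.35, adjusted p = 0.0791) or principal transcript (0.29, adjusted p = 0.142) trend removed. Both mL46 and mL48 belong to the central protuberance, the crown of the large subunit.

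Mrpl45 (chr11:97315716-97329920, plus strand) encodes mL45, which sits at the tunnel exit and ties the ribosome to the inner membrane. It had 147, 181 and 150 CPM with BPAP, against 121, 135 and 128 CPM with DMSO, with no overlap. The log2 fold change was 0.31 (SE 0.10, adjusted p = 0.0389). The call was lost without BPAP 2 (0.21, adjusted p = 0.0748), DMSO 1 (0.25, adjusted p = 0.138), DMSO 2 (0.35, adjusted p = 0.0666) or DMSO 3 (0.31, adjusted p = 0.0966), and under the exon, principal transcript and FPKM length corrections (0.11, 0.23 and 0.18).

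Mrpl43, which encodes mL43 and is among the 4 members with the highest deposited FPKM, had 105, 125 and 107 CPM with BPAP, against 77.8, 91.1 and 87.5 CPM with DMSO. The groups did not overlap, and the log2 fold change was 0.39 (SE 0.10, adjusted p = 0.0162). It was 0.31 (adjusted p = 0.0671) without DMSO 1, and 0.05, 0.12 and 0.12 with the trends of exon, principal transcript and FPKM length removed, none of which passed. The other 2 members of high FPKM did not pass the test. Mrpl42 (mL42) had 73.8, 63.1 and 72.4 CPM with BPAP, against 64.3, 53.9 and 60.1 CPM with DMSO, so the groups overlapped (log2 fold change 0.23, SE 0.10, adjusted p = 0.114). Without BPAP 2 its value was 0.30 (adjusted p = 0.0435). Mrpl4 (uL4m, in the wall of the tunnel) had 74.9, 78.2 and 75.3 CPM with BPAP, against 70.3, 70.2 and 57.8 CPM with DMSO (log2 fold change 0.21, SE 0.10, adjusted p = 0.145). The BPAP libraries lay just above the DMSO libraries.

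A pair of members carries a small-subunit name but belongs to the large subunit. Mrps18a, which encodes mL66, had 44.9, 50.8 and 44.6 CPM with BPAP, against 34.8, 38.2 and 35.6 CPM with DMSO, with no overlap. It rose, and the log2 fold change was 0.37 (SE 0.10, adjusted p = 0.0196), which was 0.32 without DMSO 1 (adjusted p = 0.0714), 0.36 without DMSO 3 (adjusted p = 0.0635) and 0.00 (adjusted p = 0.974) with the principal transcript trend removed. Mrps30, which encodes mL65, had 48.9, 58.1 and 47.1 CPM with BPAP, against 43.0, 39.7 and 41.7 CPM with DMSO. The groups did not overlap, but its log2 fold change, 0.31 (SE 0.11, adjusted p = 0.0503), just missed the threshold. It passed without BPAP 3 (0.37, adjusted p = 0.0459), with upper quartile scaling (0.33, adjusted p = 0.0407) and with the exon trend (0.56, adjusted p = 0.0175) or principal transcript trend (0.39, adjusted p = 0.0447) removed, and was 0.085 (adjusted p = 0.583) with the FPKM length trend removed.

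In the small subunit 15 of 26 genes rose, with a median log2 fold change of 0.40. Among the 16 with a bacterial counterpart 10 rose, with a median of 0.57, and among the 10 that arose in the mitochondrial lineage 5 rose, with a median of 0.34. Mrps24 (chr11:5703983-5715680, minus strand) encodes uS3m, part of the channel by which messenger RNA enters. It had 23.2, 32.6 and 31.4 CPM with BPAP, against 13.5, 13.2 and 15.4 CPM with DMSO. Even the lowest BPAP library was well above DMSO, and its log2 fold change, 1.05 (SE 0.15, adjusted p = 0.00123), or 2.07-fold, was the highest of the 77.

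Mrps28 (chr3:8802146-8923918, minus strand), which encodes bS1m, had 20.0, 22.4 and 21.0 CPM with BPAP, against 10.2, 11.1 and 11.2 CPM with DMSO. The libraries agreed closely within each group, and the log2 fold change was 0.96 (SE 0.12, adjusted p = 0.000773). Mrps12 (chr7:28739641-28741820, minus strand) encodes uS12m, part of the centre where codons are read. It is a low-count member, with 7.57, 11.3 and 10.8 CPM with BPAP, against 4.50, 6.73 and 5.71 CPM with DMSO. The lowest BPAP library was close to the highest DMSO library, and the log2 fold change was 0.80 (SE 0.21, adjusted p = 0.0155). Without DMSO 1 it was 0.65 (adjusted p = 0.0618), and with the principal transcript trend removed 0.44 (adjusted p = 0.118).

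Mrps6, chosen after its values were seen, encodes bS6m, the partner of the bS18 protein on the platform of the bacterial small subunit. It had 60.1, 100.1 and 58.4 CPM with BPAP, against 33.6, 36.7 and 41.8 CPM with DMSO. BPAP 2 was far above the other BPAP libraries, all of which exceeded DMSO, and the log2 fold change was 0.96 (SE 0.21, adjusted p = 0.0126). It was 0.87 (adjusted p = 0.0605) without DMSO 1 and 0.56 (adjusted p = 0.0538) with the principal transcript trend removed. Its own exons share 10.4% of their bases with those of Slc5a3, a same-strand neighbour with a mean of 4184 counts, so the 2 genes' reads may be mixed.

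The 3 mammalian relatives of bacterial bS18 sit at different places in the ribosome. Besides Mrps18a, described with the large subunit, Mrps18c encodes the direct counterpart bS18m and Mrps18b encodes mS40. Mrps18c had 25.2, 26.7 and 31.0 CPM with BPAP, against 15.1, 16.3 and 18.2 CPM with DMSO, and rose: the log2 fold change was 0.74 (SE 0.13, adjusted p = 0.00253). Mrps18b had 27.3, 34.9 and 31.8 CPM with BPAP, against 21.3, 20.1 and 22.8 CPM with DMSO, and rose: the log2 fold change was 0.55 (SE 0.12, adjusted p = 0.00812). In neither gene did the groups overlap. Mrps18c was called under all 3 length corrections, while Mrps18b had 0.20 (adjusted p = 0.207) with the principal transcript trend removed. The differences between the 3 relatives were not tested.

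Mrps33 (mS33, 1.53-fold), Mrps21 (bS21m, 1.55-fold) and Mrps16 (bS16m, 1.49-fold) were called in every fit with a library left out. Mrps21 lost its call with the exon (0.23, adjusted p = 0.177) or principal transcript (0.17, adjusted p = 0.315) trend removed, and Mrps16 with the FPKM length trend removed (0.21, adjusted p = 0.27). Mrps36 belongs by name to the small subunit, but its product is known as a part of the alpha-ketoglutarate dehydrogenase complex and is missing from structures of the mammalian mitochondrial ribosome. It had 7.08, 5.99 and 7.05 CPM with BPAP, against 4.22, 5.09 and 5.56 CPM with DMSO. Although the groups did not overlap, it did not pass the test (log2 fold change 0.43, SE 0.18, adjusted p = 0.0889).

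**Figure D4:**
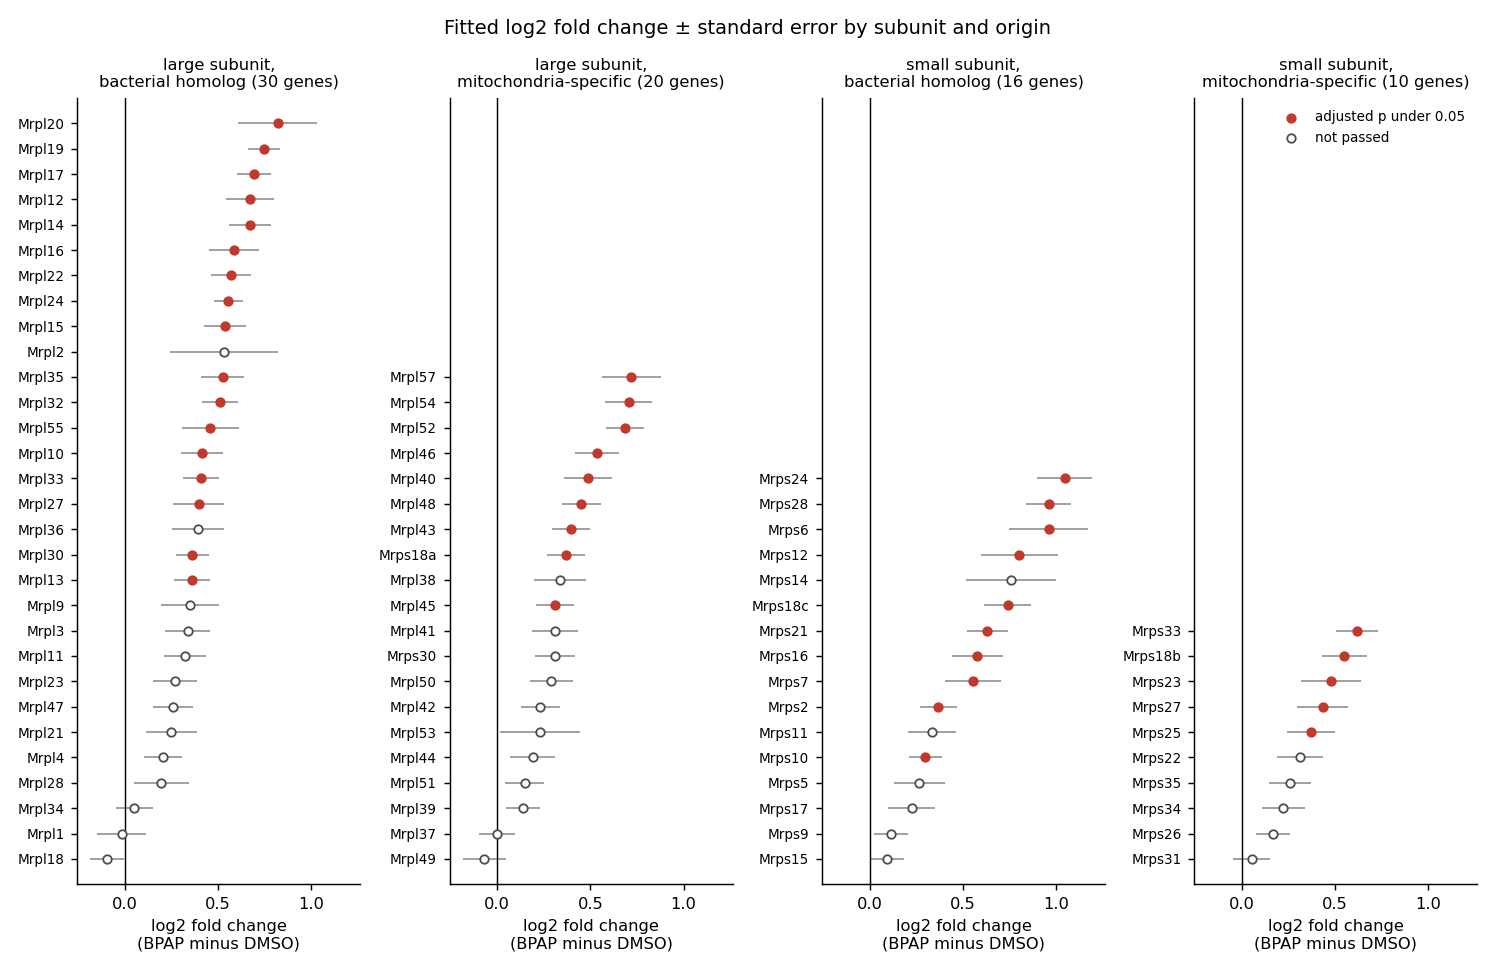
Fitted log2 fold change (BPAP minus DMSO) with its standard error for 76 members, in panels by subunit and by whether the protein has a bacterial counterpart; Mrps36 is not drawn. Filled points passed the test; almost all points lie right of 0, and the small-subunit genes with a bacterial counterpart reach highest, at 1.05 for Mrps24.

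A few members, named after their values were seen, stood outside this pattern. Negative log2 fold changes were found in 4 members, and none passed. They were Mrpl18, Mrpl49, Mrpl1 (-0.018, adjusted p = 0.928) and Mrpl37 (-0.00037, adjusted p = 0.998). Mrpl18 encodes uL18m of the central protuberance, and was the 1 member with every BPAP library below every DMSO library, at 47.4, 51.5 and 52.4 CPM with BPAP, against 54.1, 54.8 and 52.5 CPM with DMSO. The groups nearly touch, and its log2 fold change, -0.09 (SE 0.091, adjusted p = 0.458), did not pass. With the trends of exon and principal transcript length removed it was -0.44 (adjusted p = 0.00633) and -0.39 (adjusted p = 0.0101). Exons of Mrpl18 share 10.1% of their bases with Tcp1 on the opposite strand, with a mean of 5169.5 counts against 646 for Mrpl18. The part of Tcp1 reads in the Mrpl18 values was not tested. Mrpl34, which encodes bL34m, had 29.6, 31.1 and 29.5 CPM with BPAP, against 30.1, 29.1 and 28.0 CPM with DMSO. Here the groups overlapped (log2 fold change 0.05, SE 0.099, adjusted p = 0.721), and under the 3 length corrections the value was -0.33, -0.37 and -0.31, each past the threshold.

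Mrpl49, which encodes mL49, had 25.6, 24.5 and 24.6 CPM with BPAP, against 23.1, 26.1 and 29.2 CPM with DMSO, with the BPAP libraries inside the range of the DMSO libraries. Its log2 fold change was -0.07 (SE 0.12, adjusted p = 0.669), and 0.02 without DMSO 3. With the exon trend removed it was called lower (-0.35, adjusted p = 0.044), and with the principal transcript and FPKM trends removed it was -0.24 and -0.28 and not called. Mrpl44, whose product mL44 has a fold of the ribonuclease III family, had 39.3, 46.8 and 43.7 CPM with BPAP, against 32.2, 40.9 and 40.5 CPM with DMSO. The groups overlapped, and the log2 fold change was 0.19 (SE 0.12, adjusted p = 0.256).

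In 2 further members the libraries of a group were widely spread. Mrps14, which encodes uS14m, had 56.5, 66.5 and 69.1 CPM with BPAP, against 23.3, 42.6 and 47.2 CPM with DMSO. The groups did not overlap, but DMSO 1 was far below the other DMSO libraries, and its log2 fold change, 0.76 (SE 0.24, adjusted p = 0.0504), just missed the threshold. It passed without DMSO 1, at 0.49 (adjusted p = 0.0245), and without DMSO 3, at 0.95 (adjusted p = 0.0317). The other fits with a library left out did not pass, with an adjusted p of up to 0.181. With all libraries kept Mrps14 passed in DESeq2 (adjusted p = 0.00317), limma-voom (0.0252), limma-trend on FPKM (0.0416), upper quartile scaling (0.047), the replicate block (0.00513) and the fit with the principal transcript trend removed (0.0476). It did not pass with the exon (0.81, adjusted p = 0.0659) or FPKM length (0.70, adjusted p = 0.0772) trend removed. Mrpl2, which encodes uL2m near the centre of peptide bond formation, had 30.2, 42.7 and 21.6 CPM with BPAP, against 15.1, 25.7 and 24.3 CPM with DMSO. These libraries overlapped widely (log2 fold change 0.53, SE 0.29, adjusted p = 0.207), with values of 0.25 to 0.74 when a library was left out, none of which passed.

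Of the 41 calls, 18 were lost in at least 1 fit with a library left out. Besides Mrpl20, Mrpl43, Mrpl45, Mrps6, Mrps12 and Mrps18a these were Mrpl10, Mrpl13, Mrpl27, Mrpl30, Mrpl40, Mrpl55, Mrps2, Mrps7, Mrps10, Mrps23, Mrps25 and Mrps27, and their highest adjusted p in these fits ran between 0.0575 and 0.17. Leaving out DMSO 1 lost 14 of the 41 calls, DMSO 3 lost 12 and DMSO 2 lost 10, while leaving out BPAP 1, 2 or 3 lost 5, 5 and 6. Mrpl58, a peptide-release factor built into the ribosome, is listed in the table under its older name Ict1 and so is not among the 77. It had 16.4, 19.9 and 15.1 CPM with BPAP, against 11.7, 14.9 and 11.6 CPM with DMSO. The groups did not overlap, and the log2 fold change was 0.42 (SE 0.16, adjusted p = 0.0601).

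Levels were compared between members per length, as CPM per kilobase of the principal transcript. The median level over the 77 genes was 27.0 with BPAP and 19.8 with DMSO on this scale, and the range over the members was 5.20 to 192 with BPAP and 4.03 to 149 with DMSO. Mrpl30, which encodes uL30m, had the highest level, at 192 ± 12.1 with BPAP and 149 ± 7.61 with DMSO (SD, n = 3 each). Mrpl24 came next, with 156 ± 3.08 CPM per kilobase with BPAP and 106 ± 4.21 with DMSO, followed in DMSO by Mrpl42, which did not pass the test, with 105 ± 8.76 with BPAP and 89.3 ± 7.88 with DMSO. The levels of these 3 genes in DMSO lay further apart than their spreads. Mrps25, with a principal transcript of 6073 bases, had the lowest, at 5.20 ± 0.815 with BPAP and 4.03 ± 0.132 with DMSO. The deposited FPKM values rest on another length and put Mrpl42, Mrpl43, Mrpl32 and Mrpl4 on top, with means over all libraries of 96.8, 81.4, 68.2 and 55.2 FPKM, so the order of levels depends on the length used.

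Some members share sequence with a neighbour, and because the strand setting of the libraries is not given here, reads from overlapping genes cannot be told apart. In 12 members at least 10% of the exon bases overlap those of a gene with at least 10% of the member's counts, and 8 of these 12 rose. The widest overlaps were with neighbours of higher counts. Mrps25, which rose, shares 69.8% of its exon bases with Nr2c2 on the opposite strand, with a mean of 346 counts for Mrps25 and 899.8 for Nr2c2. Mrpl53 shares 88.0% with Ccdc142 on the same strand (72.7 counts against 360.2), and Mrps34 shares 63.4% with Mapk8ip3 on the opposite strand (252 against 2879), and neither of these 2 members passed the test. Exons of Mrpl19 overlap those of Gcfc2 on the opposite strand over 36.0% of their bases, and those of Mrpl24 overlap Rrnad1 over 26.3%. The neighbours had means of 135 and 272 counts per library, against 1332 for Mrpl19 and 2167 for Mrpl24. Mrps24 shares 15.4% of its exon bases with Urgcp on the same strand, with a mean of 266 counts for Mrps24 and 247 for Urgcp. The part of these neighbours in the members' values was not tested.

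Mrpl46 and Mrps11 are both members and lie head to head on chromosome 7, with RefSeq start sites 42 bases apart on opposite strands. Mrpl46 had 19.8, 20.4 and 19.0 CPM with BPAP, against 14.0, 14.3 and 12.6 CPM with DMSO. Mrps11, which encodes uS11m, had 17.9, 22.3 and 18.3 CPM with BPAP, against 14.6, 16.3 and 15.5 CPM with DMSO. Neither gene's groups overlapped, and the log2 fold changes were 0.53 (SE 0.12, adjusted p = 0.00782) for Mrpl46 and 0.33 (SE 0.13, adjusted p = 0.0711) for Mrps11. The difference between them was not tested, and their exons share 173 bases.

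Because the members moved together, their promoters were searched for short motifs of factors known to act on nuclear genes of mitochondria. GABPA (nuclear respiratory factor of the ETS family), NRF1 and YY1 are the classical ones. RefSeq promoter windows on GRCm38.p6, from 250 bases before to 50 bases after the start site, were found for 68 of the 77 genes, with 27025 genes in the comparison over the whole genome. Letters were matched on both strands. The NRF1 letters can overlap their own reverse complement, and such a pair counts once per gene. The ETS letters CCGGAAG were present in 25 of 68 members, or 36.8%, and in 9.93% of all genes. The NRF1 letters GCATGCGC were present in 8 members, or 11.8%, and in 3.05% of all genes. The YY1 letters AAGATGGCG were present in 8 members, or 11.8%, and in 1.64% of all genes.

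Other motifs were less common or near the level of all genes. The CCAAT box was present in 39.7% of the members and 41.1% of all genes, the TATA letters TATAAA in 7.35% and 15.7%, and the E-box CACGTG in 7.35% and 8.09%. The ATF4 letters TGATGNAA, searched because Atf4 itself rose, were found in 0 of 68 members and in 4.51% of all genes. The median GC content of the members' windows was 58.5%, against 52.7% for all windows, and motif shares depend on base composition. Among the 36 members that rose and had a window, 17 (47.2%) held the ETS letters, against 8 of 32 (25%) that did not pass. For the CCAAT box the order was the reverse, with 8 of 36 (22.2%) against 19 of 32 (59.4%). These shares are descriptions of letters in a window, and the motifs' part in the changes was not tested.

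The promoters below show these letters in 5 genes that rose and in Mrpl18, which did not. They are examples with letters: the windows of Mrpl12, Mrpl14, Mrpl24 and Mrpl30, which also rose, hold none of the searched letters. Capitals mark a motif on either strand, with the first transcribed base at position 251 of each line, and all are RefSeq sequence on GRCm38.p6. Mrpl17 (chr7:105811038-105811337, minus strand), Mrpl22 (chr11:58171414-58171713, plus strand) and Mrpl32 (chr13:14612988-14613287, minus strand) carry NRF1 letters, and the first 2 also ETS letters. In Mrpl32 the NRF1 letters appear at 3 places, one of them read on both strands. Mrpl52 (chr14:54426659-54426958, plus strand) has the ETS letters 2 times, and Mrps12 (chr7:28741772-28742071, minus strand) has 4 CCAAT boxes and 1 ETS match. Mrpl18 (chr17:12916042-12916341, minus strand) has a CCAAT box and an ETS match.
Mrpl17: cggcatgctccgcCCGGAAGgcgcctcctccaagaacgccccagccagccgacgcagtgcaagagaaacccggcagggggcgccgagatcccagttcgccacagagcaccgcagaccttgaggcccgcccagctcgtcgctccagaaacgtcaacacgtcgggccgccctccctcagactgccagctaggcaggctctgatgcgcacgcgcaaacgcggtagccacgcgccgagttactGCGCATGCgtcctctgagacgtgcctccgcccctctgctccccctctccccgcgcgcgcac
Mrpl22: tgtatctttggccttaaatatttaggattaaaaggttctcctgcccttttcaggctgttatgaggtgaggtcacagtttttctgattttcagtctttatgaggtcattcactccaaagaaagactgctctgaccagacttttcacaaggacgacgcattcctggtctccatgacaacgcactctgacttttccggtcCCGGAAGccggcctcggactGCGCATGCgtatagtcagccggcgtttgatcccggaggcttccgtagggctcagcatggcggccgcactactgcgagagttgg
Mrpl32: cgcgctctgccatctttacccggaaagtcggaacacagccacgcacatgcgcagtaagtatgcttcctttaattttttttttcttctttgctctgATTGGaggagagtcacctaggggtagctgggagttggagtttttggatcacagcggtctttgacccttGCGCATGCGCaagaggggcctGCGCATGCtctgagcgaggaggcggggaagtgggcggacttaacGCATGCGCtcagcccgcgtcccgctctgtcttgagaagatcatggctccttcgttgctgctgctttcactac
Mrpl52: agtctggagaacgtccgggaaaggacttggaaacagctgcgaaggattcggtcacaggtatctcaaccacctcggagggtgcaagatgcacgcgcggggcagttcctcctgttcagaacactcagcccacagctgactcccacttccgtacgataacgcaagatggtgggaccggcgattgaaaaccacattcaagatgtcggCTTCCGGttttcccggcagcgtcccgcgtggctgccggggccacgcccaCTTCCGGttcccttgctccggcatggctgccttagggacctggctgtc
Mrps12: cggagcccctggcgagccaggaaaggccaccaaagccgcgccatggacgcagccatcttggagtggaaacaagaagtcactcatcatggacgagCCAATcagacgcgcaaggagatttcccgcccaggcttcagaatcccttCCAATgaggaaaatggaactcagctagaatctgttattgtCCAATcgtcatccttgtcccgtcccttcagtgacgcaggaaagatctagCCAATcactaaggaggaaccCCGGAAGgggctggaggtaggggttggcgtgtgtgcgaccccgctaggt
Mrpl18: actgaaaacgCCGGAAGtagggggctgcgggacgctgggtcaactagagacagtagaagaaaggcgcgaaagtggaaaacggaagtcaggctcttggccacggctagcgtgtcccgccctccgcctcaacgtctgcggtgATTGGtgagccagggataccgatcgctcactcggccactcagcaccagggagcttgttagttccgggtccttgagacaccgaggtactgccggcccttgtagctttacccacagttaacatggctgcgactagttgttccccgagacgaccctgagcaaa

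The mitochondrial ribosome also holds 5 proteins with other names. Aurkaip1 and Chchd1, both small-subunit components, rose, and Ptcd3 fell. Aurkaip1 had 44.3, 52.6 and 42.1 CPM with BPAP, against 33.4, 34.5 and 35.2 CPM with DMSO (log2 fold change 0.43, SE 0.11, adjusted p = 0.0151). The call was lost without DMSO 1 (0.39, adjusted p = 0.059) or DMSO 2 (0.43, adjusted p = 0.0513), and with the trend of exon length (0.15, adjusted p = 0.268) or principal transcript length (0.12, adjusted p = 0.37) removed. Ptcd3, an RNA-binding protein at the entry of messenger RNA, had 33.7, 31.5 and 34.2 CPM with BPAP, against 46.9, 43.4 and 42.7 CPM with DMSO. Its groups were well apart in the direction opposite to the members, and the log2 fold change was -0.42 (SE 0.097, adjusted p = 0.00987), though it was -0.22 (adjusted p = 0.0932) with the exon length trend removed. Chchd1 changed by 0.36 on the log2 scale (SE 0.11, adjusted p = 0.0316), which was between -0.04 and 0.00 under the length corrections and was lost in 5 of 6 fits with a library left out. Gadd45gip1 (0.49, adjusted p = 0.0622) and Dap3 (0.07, adjusted p = 0.584) did not pass. Gadd45gip1 passed without BPAP 3 (0.67, adjusted p = 0.0123) and with no expression filter (adjusted p = 0.0498), and ran between 0.28 and 0.67 when a library was left out.

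Of 28 tested genes for assembly factors of the mitochondrial ribosome, 7 rose and 1 fell, where 16.2% of all genes rose and 15.5% fell, and the median log2 fold change was 0.20. The count of higher genes was 4 without BPAP 1 and 3 without BPAP 3, DMSO 1 or DMSO 2, near the share of all genes in those fits, and 4 or 5 under the length corrections. The 3 with the smallest p-values were Ngrn (0.60, adjusted p = 0.00544), needed for large-subunit RNA, Ddx28 (0.58, adjusted p = 0.00492), an RNA helicase of large-subunit assembly, and Mtg1 (0.54, adjusted p = 0.00903), a GTPase of the same process. With the exon trend removed Ngrn had 0.28 (adjusted p = 0.0829) and Ddx28 0.36 (adjusted p = 0.0325), and with the principal transcript trend removed Ngrn had 0.31 (adjusted p = 0.0598) and Mtg1 0.31 (adjusted p = 0.0799). Mettl17, a factor of small-subunit assembly, fell (-0.42, adjusted p = 0.0147), and lost its call without BPAP 1 (adjusted p = 0.0512) or DMSO 2 (adjusted p = 0.064) and with the FPKM length trend removed (adjusted p = 0.0541). Of 20 tested genes for soluble translation factors and messenger RNA handling proteins of mitochondria, 2 (10%) rose and 4 (20%) fell, where 16.2% and 15.5% of all genes did, with a median of 0.00, and without DMSO 3 the count of lower genes was 2. Those that fell were Guf1 (-0.73, adjusted p = 0.00385), a ribosome-dependent GTPase related to bacterial LepA, Gfm1 (-0.36, adjusted p = 0.00962), the elongation factor that moves the ribosome by a codon, Mtfmt (-0.47, adjusted p = 0.0133), which formylates the initiator transfer RNA, and Lrpprc (-0.31, adjusted p = 0.0202), which stabilises mitochondrial messenger RNAs. Guf1 and Gfm1 were called in all 6 fits with a library left out, while Mtfmt lost its call without DMSO 3 (adjusted p = 0.0571) and Lrpprc without BPAP 1 (0.0656), DMSO 2 (0.0725) or DMSO 3 (0.0622). With the exon, principal transcript and FPKM length trends removed Lrpprc had -0.15, -0.20 and -0.17 and lost its call in each. Guf1 kept its call in all 3, with -0.28 under the exon trend. The 2 that rose, named after their values were seen, were Tsfm and Mtif3, and neither was called in all 6 fits or under all 3 length corrections.

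Guf1 had 47.9, 35.4 and 52.0 CPM with BPAP, against 77.6, 70.1 and 76.0 CPM with DMSO, and Gfm1 had 66.7, 67.0 and 69.9 CPM with BPAP, against 84.6, 89.2 and 87.9 CPM with DMSO. In both genes every BPAP library was below every DMSO library. Among 6 genes of mitochondrial transcription 0 rose and 1, Tfb2m, fell (-0.36, adjusted p = 0.0297), where 16.2% of all genes rose and 15.5% fell. The Tfb2m call was lost without BPAP 1, BPAP 2, DMSO 1 or DMSO 3 (adjusted p of 0.0755, 0.0586, 0.057 and 0.111). At an unadjusted p of 0.05 that list had 2 genes higher, and DESeq2 and limma-voom called 0 higher.

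Regulators of mitochondrial genes gave 4 higher and 1 lower of 13 tested, where 16.2% of all genes rose and 15.5% fell. Atf4, the transcription factor of the integrated stress response, had 613, 670 and 660 CPM with BPAP, against 328, 336 and 327 CPM with DMSO. Its groups were far apart, and the log2 fold change was 0.97 (SE 0.080, adjusted p = 0.000176). Ddit3 (0.78, adjusted p = 0.0012) and Atf5 (0.95, adjusted p = 0.00445), factors of the same response, also rose, as did Esrra (0.50, adjusted p = 0.0452), a nuclear receptor that drives genes of respiration. Esrra lost its call without BPAP 2 (adjusted p = 0.12), DMSO 1 (0.163) or DMSO 3 (0.0898), and under each of the 3 length corrections (0.37 to 0.43). Of the genes for the factors behind the promoter motifs, Gabpa (-0.09, adjusted p = 0.589), Nrf1 (0.18, adjusted p = 0.181) and Yy1 (-0.16, adjusted p = 0.251) did not pass. Nrf1 was called higher with the trend of exon length (0.41, adjusted p = 0.0157) or FPKM length (0.45, adjusted p = 0.0107) removed, and was 0.0086 (adjusted p = 0.953) with that of the principal transcript. Gabpb2, a partner of Gabpa, fell (-0.29, adjusted p = 0.0362), a call lost in 5 of 6 fits with a library left out and reversed in sign under each length correction.

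Genes of the cytosolic ribosome and of the respiratory chain rose as well. Of 80 genes for cytosolic ribosomal proteins 51 rose and 1 fell, and their median log2 fold change was 0.50. Of 80 respiratory chain genes encoded in the nucleus 48 rose and 0 fell, and the median was 0.43. Over all genes tested 16.2% rose and 15.5% fell. At an unadjusted p of 0.05 the respiratory chain list had 1 gene lower, and DESeq2 and limma-voom called 0. Rplp1, of the stalk of the cytosolic ribosome, had 1061, 1328 and 1207 CPM with BPAP, against 602, 683 and 694 CPM with DMSO. Uqcrq, a subunit of the respiratory complex that passes electrons to cytochrome c, had 266, 338 and 295 CPM with BPAP, against 134, 153 and 145 CPM with DMSO. In both genes the groups were far apart, with log2 fold changes of 0.86 (SE 0.11, adjusted p = 0.000706) and 1.06 (SE 0.11, adjusted p = 0.000421). Rplp1 had 0.42 (adjusted p = 0.00899) with the principal transcript trend removed. Like the members, both lists have short transcripts, with median principal lengths of 882 and 863 bases. With that trend removed 18 (22.5%) and 14 (17.5%) of their genes rose, where 11.6% of all genes did, with medians of 0.14 and 0.12. Of the 13 proteins made by the mitochondrial ribosome, by contrast, 0 transcripts rose and 5 fell, where 16.2% of all genes rose and 15.5% fell. Their median was -0.49. No member of that list was higher at an unadjusted p of 0.05, and DESeq2 and limma-voom called 0 higher. The gene with the smallest p-value was mt-Cytb, cytochrome b, with 3236, 2811 and 2882 CPM with BPAP, against 6818, 4454 and 4500 CPM with DMSO. DMSO 1 was far above the other DMSO libraries, which still exceeded all BPAP libraries, and the log2 fold change was -0.82 (SE 0.16, adjusted p = 0.0061). Fits without BPAP 1, BPAP 2 or BPAP 3 called 2, 1 and 1 of the 13 genes lower, where 12.2%, 14.0% and 13.4% of all genes fell. Without DMSO 1 mt-Cytb kept its call, being called in all 6 fits with a library left out. In those fits mt-Nd4, mt-Nd4l, mt-Atp8 and mt-Co2 lost their calls only where a BPAP library was left out. Over those fits the count of lower genes ran between 1 and 7. The part of the high mitochondrial share of DMSO 1, given above, in these transcripts was not tested.

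**Figure D5:**
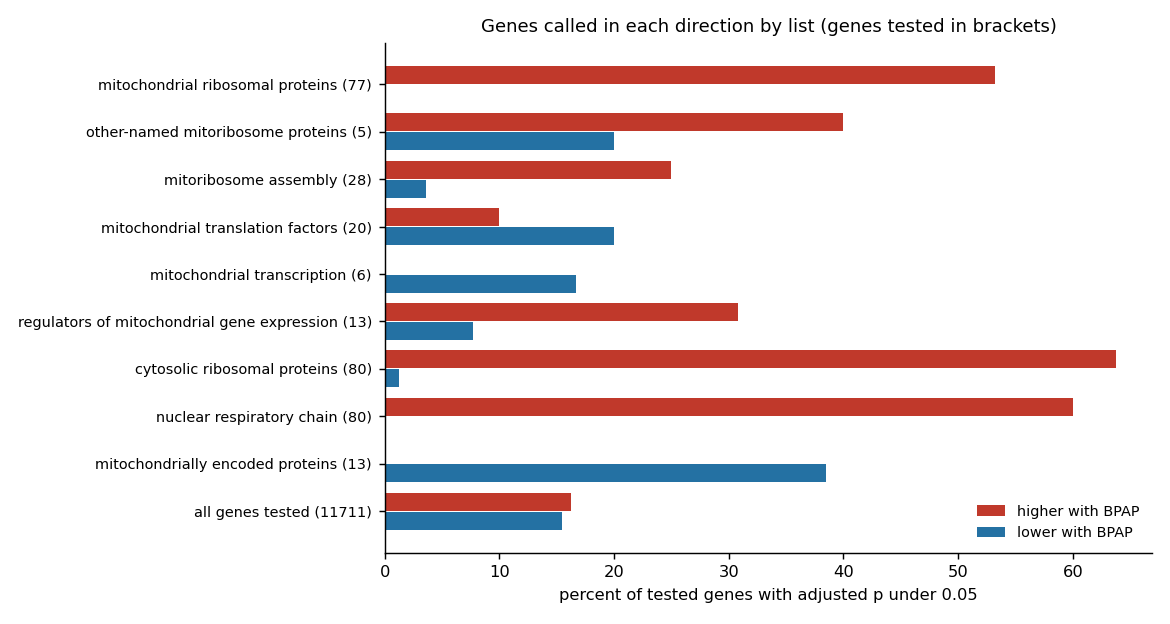
Percent of the tested genes in each list that were called higher (red) or lower (blue) with BPAP at an adjusted p of 0.05, with all 11711 genes tested at the foot. Mitochondrial ribosomal proteins reach 53.2% higher with 0 lower, while mitochondrially encoded proteins have 0 higher and 5 of 13 lower.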

How the data were processed

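RNA sequencing of 6 RAW 264.7 libraries was analysed, 3 from BPAP and 3 from DMSO, grouped by the treatment label. Total RNA was extracted with TRIzol, per the labels' protocols. The authors deposited 1 table with raw counts per gene and FPKM values per library, per the file headers, and these FPKM values use a gene length that differs from the merged exon length. The submitters' processing notes name HISAT2 2.0.4, StringTie 1.3.3b, edgeR and GRCm38 without roles. For the annotation release, the strand setting and the counting of shared reads the sources used here give nothing, so overlapping and antisense genes are uncertain. Every per-sample column was mapped to a sample by its name.

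Counts were tested with edgeR 4.0.16 in R 4.3.3: the default expression filter left 11711 genes, with TMM scaling and robust quasi-likelihood tests of BPAP against DMSO. Tests are 2-sided, p-values were adjusted by Benjamini-Hochberg across those genes, and calls used an adjusted p of 0.05. CPM values are counts divided by the TMM-scaled library size. The fit was tested on simulated data. Library pairs differed by more than sampling noise, the closest pair having a chi-square per degree of freedom of 7.00. Exon and principal transcript lengths came from GENCODE M21 and promoters from RefSeq on GRCm38.p6, with no entry used for Mrpl4, Mrpl13, Mrpl15, Mrpl19, Mrpl38, Mrpl54, Mrps28, Mrps34 and Mrps35. Trends with exon or principal transcript length and GC content, or with FPKM length alone, were removed with lowess offsets per library (span 0.3).

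Alternatives were DESeq2 size factors, upper quartile scaling, no expression filter, a replicate block, DESeq2 1.42.0, limma-voom and limma-trend (both limma 3.58.1, limma-trend on log2(FPKM + 1) for genes with a mean FPKM of at least 1), 3 length corrections and each library left out. Members given in full were the 6 of smallest p, the 4 of highest FPKM and genes of known role, and up to 4 genes per companion list were named by p. Members and lists were chosen with earlier results of these data known.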

Additional observations from a re-analysis of the deposited data

How the results depend on the processing

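Scaling by DESeq2 size factors or the upper quartile, no expression filter, DESeq2, limma-voom and limma-trend on FPKM gave 36 to 46 members higher and 0 lower. In these settings 10.9% to 17.8% of all genes rose and 11.3% to 18.2% fell. With limma-trend the members' median log2 fold change was 0.30 on the log2(FPKM + 1) scale. Removing length trends changed the counts more. Higher counts were 28 (exon length and GC content), 19 (principal transcript length and GC content, chosen after seeing the data) and 30 (FPKM length), lower counts were 3, 2 and 1, and medians were 0.24, 0.20 and 0.30. With exon trend and replicate block together 28 members were higher and 2 lower, with a median of 0.24. In that fit 13.1% of all genes rose and 12.5% fell. With a library left out 30 to 38 were higher. With the exon trend also removed, added after seeing the data, 25, 21 and 18 members were higher without BPAP 1, 2 or 3 and 17, 14 and 16 without DMSO 1, 2 or 3. Lower were 1, 1, 1, 2, 1 and 1, and the medians were 0.28, 0.23, 0.24, 0.26, 0.22 and 0.26. In the same order 9.09%, 9.84%, 9.42%, 7.98%, 6.4% and 7.77% of all genes rose. The shares that fell were 7.98%, 9.27%, 8.81%, 7.13%, 5.67% and 7.53%.

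Positive values were found in 73 of 77 members without a correction, and in 64, 58 and 69 with the exon, principal transcript and FPKM length trends removed. Over all genes they were found in 6046 of 11711 without a correction. With the same 3 trends removed they were found in 5925 of 11665, 5914 of 11665 and 5928 of 11711. Under these 3 corrections and the exon trend with block, sign changed, among others, for Mrpl34 (-0.33, -0.37, -0.31, -0.33), Chchd1 (-0.0050, -0.040, -0.0094, -0.0025) and Gabpb2 (0.064, 0.030, 0.089, 0.063). Exon, principal transcript and block corrections changed it for Mrpl44 (-0.14, -0.078, -0.13) and Gabpa (0.076, 0.18, 0.085). Principal transcript and FPKM corrections changed it for Mrpl42 (-0.13, -0.12) and Mrpl4 (-0.075, -0.060). The principal transcript correction alone changed it for Mrps10 (-0.043), Mrps11 (-0.0081), Mrpl27 (-0.000103), Mrpl23 (-0.13), Mrps9 (-0.13) and Yy1 (0.0050). All 3 length corrections also changed it for Mrps15 (-0.20, -0.28, -0.079) and Mrpl53 (-0.16, -0.19, -0.015). The genes named here are examples and not a full list. Leaving out a library gave ranges across 0 for Mrpl49 (-0.17 to 0.017), Dap3 (-0.0096 to 0.11) and Gabpa (-0.16 to 0.034). The cause was not tested.

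The replicate block gave 45 members higher and 0 lower, where 18.4% of all genes rose and 17.8% fell. The labels do not say whether same-numbered libraries were paired. Their deviations correlated by 0.10, 0.05 and 0.01, and those of differently numbered libraries by -0.086 to 0.045. Pairing was not tested. Length corrections gave 18 to 35 cytosolic ribosomal and 14 to 30 respiratory genes higher, where 11.6% to 13.1% of all genes rose. The count of lower mitochondrially encoded genes ran between 1 and 9 over all settings, where 10.4% to 18.2% of all genes fell. Depth, at 46 to 2598 counts per member and library, limits the low-count members most.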
